A study of Mus musculus with 12 samples.

Results

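Cytochrome c oxidase, complex IV of the respiratory chain, passes electrons from cytochrome c to oxygen in the inner mitochondrial membrane. Its catalytic core is encoded in the mitochondrial genome, and nuclear genes supply the subunits around it. For some of these subunits mammals carry a pair of genes, an isoform expressed in most tissues and a second isoform that heart and skeletal muscle are known for. Cox6a2, Cox7a1 and Cox8b are the heart/muscle-type isoforms of subunits 6a, 7a and 8, and Cox6a1, Cox7a2 and Cox8a are their widely expressed partners. Subunit 4 has a different arrangement, with Cox4i1 as the general form and Cox4i2 as a form best known from lung. These 8 genes were found by symbol among the 22276 genes of the expression table, and each had a value in all 12 libraries.

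RNA was sequenced from WAT, BAT, liver and quadriceps muscle of male C57BL/6J mice of 17 wk of age, to find the organs that respond to narciclasine (ncls), a plant alkaloid. The mice were on normal chow with vehicle (NCD-veh), on a high-fat diet with vehicle (HFD-veh), or on a high-fat diet with ncls (HFD-ncls). The high-fat diet was given from 8 wk of age, and vehicle or ncls was given from 10 wk of age until the end. Each organ and condition had 1 library. The sources used here give neither the number of mice behind a library nor whether the organs of a condition came from the same mice. Levels are FPKM (fragments per kilobase of transcript, scaled to the fragments mapped), so levels of genes of different length can be compared. For transcripts as short as those of Cox7a1 (364 nt) and Cox8b (362 nt), FPKM also depends on the fragment length assumed, which is not given in the sources used here.

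The 4 organs carried the markers of their labels. The summed FPKM of 6 adipocyte markers was 16087 to 26244 in WAT and 9564 to 10454 in BAT. That of 7 brown fat markers was 2019 to 2447 in BAT and 14.8 to 30.8 in WAT. The sum of 14 muscle markers was 114008 to 119085 in muscle, and that of 9 liver markers was 48796 to 53612 in liver. Markers of other organs were present as well. The muscle markers summed to 2313, 949 and 142 FPKM in BAT (NCD-veh, HFD-veh and HFD-ncls), and to 75.5 in HFD-veh liver against 5.35 and 5.68 in the other 2 liver libraries. The liver markers summed to 314 in HFD-veh muscle against 16.2 and 7.70 in the other 2 muscle libraries. In WAT they summed to 1056, 468 and 516 (NCD-veh, HFD-veh and HFD-ncls), mostly from Cyp2e1 at 1053, 438 and 409. The brown fat markers summed to 154, 41.7 and 80.3 in liver in the same order, with Elovl3 at 154, 41.3 and 80.1. The adipocyte markers summed to 331 to 367 in muscle. The steps between low FPKM values gave an approximate depth of 19200000 to 27100000 fragments per library.

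In muscle, the heart/muscle-type isoform made up most of all 3 pairs. In BAT it made up most of the Cox7a and Cox8 pairs, but almost none of the Cox6a pair. In WAT and liver the widely expressed isoform led in every pair. The share of an isoform was its FPKM over the summed FPKM of its pair, and errors are the SD over the 3 libraries of an organ, which differ in diet and treatment.

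Cox6a2 accounted for 98.3% ± 0.103 (SD, n = 3) of the Cox6a pair in muscle, with 98.4%, 98.2% and 98.3% in the 3 libraries (NCD-veh, HFD-veh and HFD-ncls). Its share in BAT was 1.38%, 1.05% and 0.0933% in the same order, and in WAT 0.0689%, 0.540% and 0.308%. The muscle libraries stood far apart from every other library.

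Cox7a1 accounted for 87.8% ± 0.241 (SD, n = 3) of the Cox7a pair in muscle, between 87.5% and 87.9%. In BAT its share was 80.6%, 84.8% and 84.9% (NCD-veh, HFD-veh and HFD-ncls). These 2 organs did not overlap, but their means lay closer together than for any other heart/muscle-type isoform. In WAT the share was 10.0%, 17.9% and 16.5% in the order NCD-veh, HFD-veh and HFD-ncls, and in liver 2.87%, 2.21% and 3.97%.

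Cox8b accounted for 96.3% ± 0.135 (SD, n = 3) of the Cox8 pair in muscle, between 96.2% and 96.5%. Its share in BAT was 70.3%, 76.6% and 78.2% (NCD-veh, HFD-veh and HFD-ncls). In WAT it was 4.66%, 10.8% and 8.83%. Cox8b was listed at 0 in the NCD-veh and HFD-ncls livers and made up 0.202% of the pair in the HFD-veh liver. The NCD-veh library had the lowest share of Cox7a1 and of Cox8b in both fat depots, with 1 library per depot and condition.

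Cox4i2 stayed a minor form throughout. Its share of the Cox4 pair was 0.495%, 1.66% and 1.66% in WAT in the order NCD-veh, HFD-veh and HFD-ncls. It was 0.311% ± 0.0415 (SD, n = 3) in BAT and 0.333% ± 0.0441 (SD, n = 3) in muscle, 2 ranges that overlapped. Cox4i2 was listed at 0 in all 3 liver libraries.

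**Figure D1:**
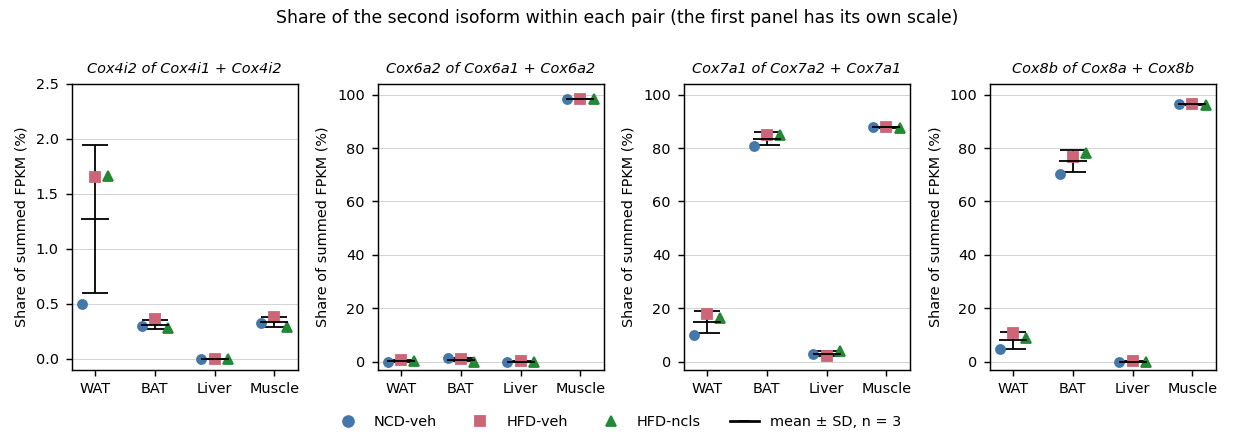
Share (%) of the second isoform in the summed FPKM of each pair, by organ, with 1 point per library and bars for the mean ± SD over the 3 libraries of an organ. Cox6a2 reached 98.3% in muscle and at most 1.38% elsewhere, whereas Cox7a1 and Cox8b made up 70.3% or more of their pairs in both BAT and muscle. The Cox4i2 panel runs only to 2.5%.

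The shares arose in different ways in the pairs, which the levels of the single genes show. Organs were compared with limma on log2(FPKM + 0.1) over 13648 genes, with organ and condition as terms and p-values adjusted over all genes of a contrast, so that the spread is what organ and condition leave unexplained. Most genes differed between organs by this test. The median log2 difference of all genes was itself -0.97 for BAT minus WAT, -1.20 for muscle minus WAT and 1.00 for WAT minus liver, and the differences below are to be read against these shifts. With libraries rescaled to a common median ratio, the higher calls rose from 15.4% to 39.6% of all calls for BAT minus WAT and from 17.5% to 38.8% for muscle minus WAT, and fell from 80.3% to 58.1% for WAT minus liver.

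Among the widely expressed isoforms, Cox6a1 and Cox8a were low in muscle only. Cox6a1 (chromosome 5, 115795651 to 115798990 of mm9, minus strand) was at 24.8, 29.5 and 26.4 FPKM in the 3 muscle libraries (NCD-veh, HFD-veh and HFD-ncls). In the same order it was at 2743, 2169 and 2329 FPKM in the BAT libraries, at 419, 458 and 422 in WAT and at 491, 465 and 548 in the livers. The muscle libraries thus lay far under all others, and muscle was lower than BAT by a log2 difference of -6.48 ± 0.13 (SE, limma adjusted p = 8.35e-09). Liver and WAT did not differ beyond their spread for Cox6a1, at a WAT minus liver difference of -0.21 ± 0.13 (SE, limma adjusted p = 0.164), which became -0.997 (adjusted p = 6.05e-05) after the rescaling.

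Cox8a (chromosome 19, 7289648 to 7292106, minus strand) showed the same order of organs apart from WAT and liver. It was at 40.9, 43.7 and 42.2 FPKM in the NCD-veh, HFD-veh and HFD-ncls muscle, against 1847, 1573 and 1633 in BAT. The muscle minus BAT difference was -5.31 ± 0.12 (SE, limma adjusted p = 1.15e-08). WAT held 533, 498 and 448 FPKM and liver 380, 379 and 441, so the HFD-ncls WAT library nearly met the highest liver library. The WAT minus liver difference of 0.30 ± 0.12 (SE, limma adjusted p = 0.0385) turned to -0.49 (adjusted p = 0.00354) after the rescaling, and no order of these 2 organs is given.

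Cox7a2 (chromosome 9, 79603048 to 79607660, minus strand) was not low in muscle. It was at 103, 98.4 and 94.9 FPKM in the 3 muscle libraries, at 82.1, 80.1 and 78.6 in WAT and at 89.5, 122 and 122 in liver. BAT stood above them all, at 372, 373 and 399. Muscle and liver did not differ beyond their spread (log2 difference -0.16 ± 0.12 SE, limma adjusted p = 0.265), although without the NCD-veh liver library the difference was -0.32 (adjusted p = 0.0147). The muscle minus WAT difference of 0.30 ± 0.12 (SE, limma adjusted p = 0.0471) was lost when any of 5 of the 6 libraries was left out, whereas after the rescaling it was 1.17 (adjusted p = 1.53e-05). The mean level of Cox7a2 in muscle was thus not under that of WAT. The mean levels of Cox6a1 and Cox8a, in contrast, were 16.1-fold and 11.7-fold higher in WAT than in muscle. In BAT the mean levels of Cox7a2, Cox6a1 and Cox8a were 3.87-fold, 89.8-fold and 39.8-fold those in muscle.

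Cox4i1 (chromosome 8, 123192190 to 123198109, plus strand) is the main form of subunit 4. In GENCODE its span is overlapped by Gm20388, annotated as protein-coding on the same strand. How reads of the overlap were counted is not given. The levels of Cox4i1 were 353, 327 and 320 FPKM in WAT, 452, 399 and 464 in liver and 516, 457 and 464 in muscle. BAT again stood apart at 1543, 1598 and 1700 FPKM. Muscle minus liver was 0.13 ± 0.11 (log2, SE, limma adjusted p = 0.304), a pair of neighbours that did not differ beyond their spread. Muscle was higher than WAT by 0.52 ± 0.11 (log2, SE, limma adjusted p = 0.00141) and WAT minus liver was -0.39 ± 0.11 (adjusted p = 0.00761), and after the rescaling these differences were 1.40 (adjusted p = 4.66e-06) and -1.18 (adjusted p = 1.59e-05).

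Of the heart/muscle-type isoforms, Cox6a2 (chromosome 7, 135348950 to 135349880, minus strand) was far lower in every other organ than in muscle. It was at 1520, 1598 and 1530 FPKM in the NCD-veh, HFD-veh and HFD-ncls muscle. In BAT it was at 38.3, 22.9 and 2.18 FPKM, in WAT at 0.289, 2.49 and 1.30, and in liver at 0, 0.986 and 0. The muscle minus BAT difference was 6.94 ± 0.99 (log2, SE, limma adjusted p = 0.000171). Its SE was the largest among the 8 genes. The fit takes the spread of a gene over all organs, and the BAT, WAT and liver libraries each spanned a wide range on the log scale.

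The Cox6a2 signal in BAT moved with the muscle markers. As a percentage of the muscle library of the same condition, 14 muscle markers had BAT medians of 1.89%, 0.767% and 0.112% (NCD-veh, HFD-veh and HFD-ncls). Cox6a2 was at 2.52%, 1.43% and 0.142%, inside the range of the markers in all 3 libraries. It lay in the upper part of that range, above 11, 13 and 12 of the 14 markers. With the median marker share of the muscle library taken off, Cox6a2 in BAT came to 9.58, 10.7 and 0.465 FPKM, and the BAT minus WAT call (3.49 ± 0.99 log2, SE, limma adjusted p = 0.00901) was lost (2.34, adjusted p = 0.0687). In the HFD-veh liver, Cox6a2 at 0.0617% and Cox8b at 0.0666% of muscle also lay inside the marker range of 0.0378% to 0.135%. The part of muscle RNA in these values was not tested further.

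**Figure D2:**
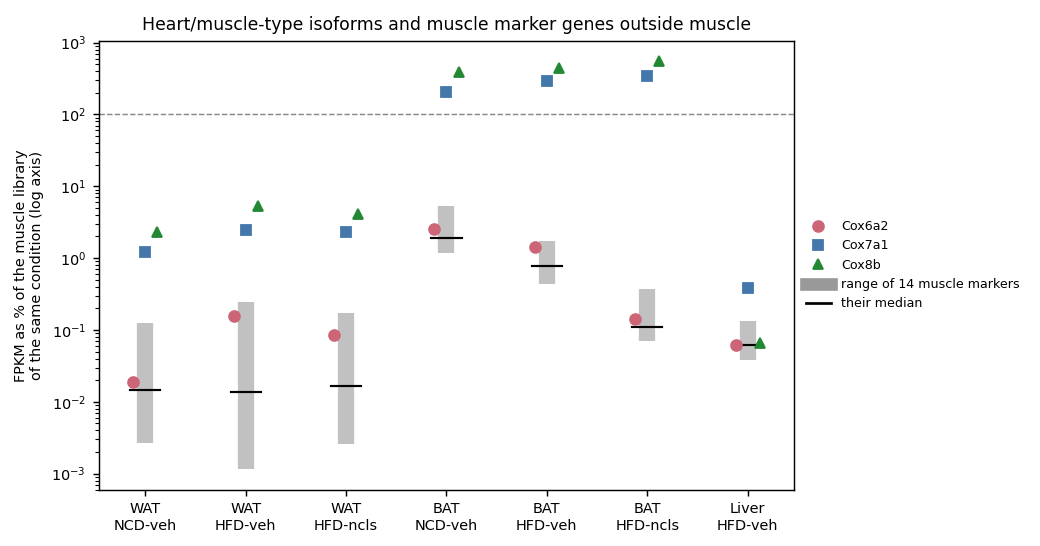
FPKM of Cox6a2, Cox7a1 and Cox8b in each WAT and BAT library and in the HFD-veh liver, as a percentage of the muscle library of the same condition, on a log axis. Grey bars span 14 muscle marker genes, black lines are their medians and the dashed line is 100%. The other 2 liver libraries are left out because they list Cox6a2 and Cox8b at 0. Cox6a2 sits inside the marker range in every library shown, above 7 to 13 of the 14 markers. Cox7a1 is above the range in all 7 libraries and Cox8b in all 6 WAT and BAT libraries.

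Cox7a1 (chromosome 7, 30969190 to 30971047, plus strand) was highest in BAT. It was at 1546, 2085 and 2239 FPKM in the NCD-veh, HFD-veh and HFD-ncls BAT and at 747, 714 and 663 in muscle. In the matched conditions BAT thus held 207%, 292% and 337% of the muscle level, and muscle minus BAT was -1.45 ± 0.23 (log2, SE, limma adjusted p = 0.000342). WAT held 9.16, 17.5 and 15.5 FPKM and liver 2.64, 2.76 and 5.05, and all 4 organs were called different from each other. The WAT values were 1.23% to 2.45% of muscle, above all 14 muscle markers in each WAT library.

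Cox8b (chromosome 7, 148084842 to 148086345, minus strand) was the most abundant of the 8 genes in BAT. It was at 4380, 5142 and 5863 FPKM there and at 1112, 1151 and 1063 in muscle. The BAT libraries held 394%, 447% and 551% of the matched muscle level, and muscle minus BAT was -2.20 ± 0.57 (log2, SE, limma adjusted p = 0.00682). This call was lost with a pseudocount of 0.01 (adjusted p = 0.124), under which the log2 difference stayed at -2.20. The fit takes the spread of a gene over all organs together. The SE thus includes the liver libraries, at 0, 0.767 and 0 FPKM, where the pseudocount sets the log2 values. WAT held 26.1, 60.4 and 43.4 FPKM, or 2.34% to 5.24% of muscle and 0.595% to 1.17% of BAT. The brown fat markers in the same WAT libraries were at a median of 0.371%, 1.94% and 0.530% of BAT, with 2 of the 7 at 0 in the HFD-ncls library, and their part in the WAT values was not tested.

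Cox4i2 (chromosome 2, 152579909 to 152590773, plus strand) was low in every organ. It was at 1.76, 5.51 and 5.39 FPKM in WAT, at 4.56, 5.74 and 4.77 in BAT and at 1.69, 1.74 and 1.36 in muscle, which is about 20 to 80 fragments per library. BAT and WAT did not differ beyond their spread (0.40 ± 0.33 log2, SE, limma adjusted p = 0.291), but after the rescaling they did (1.14, adjusted p = 0.0126). Muscle was lower than BAT by a log2 difference of -1.59 ± 0.33 (SE, limma adjusted p = 0.00202). Of 10 markers of mural cells, the smooth muscle cells and pericytes of vessels, 9 were lower in muscle than in BAT, Abcc9 was higher (2.89 ± 0.20 log2, SE, limma adjusted p = 1.32e-06), and all 10 were higher in muscle than in liver. All 5 endothelial markers were lower in muscle than in BAT and higher in muscle than in liver. Among all genes tested, 42.8% were lower in muscle than in BAT and 34.7% were higher in muscle than in liver. Between BAT and WAT, 8 mural markers were lower in BAT and 0 higher, and 1 endothelial marker was lower and 1 higher. Among all genes, 66.4% were lower in BAT than in WAT and 12.1% higher. The part of these cells in the Cox4i2 levels was not tested.

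**Figure D3:**
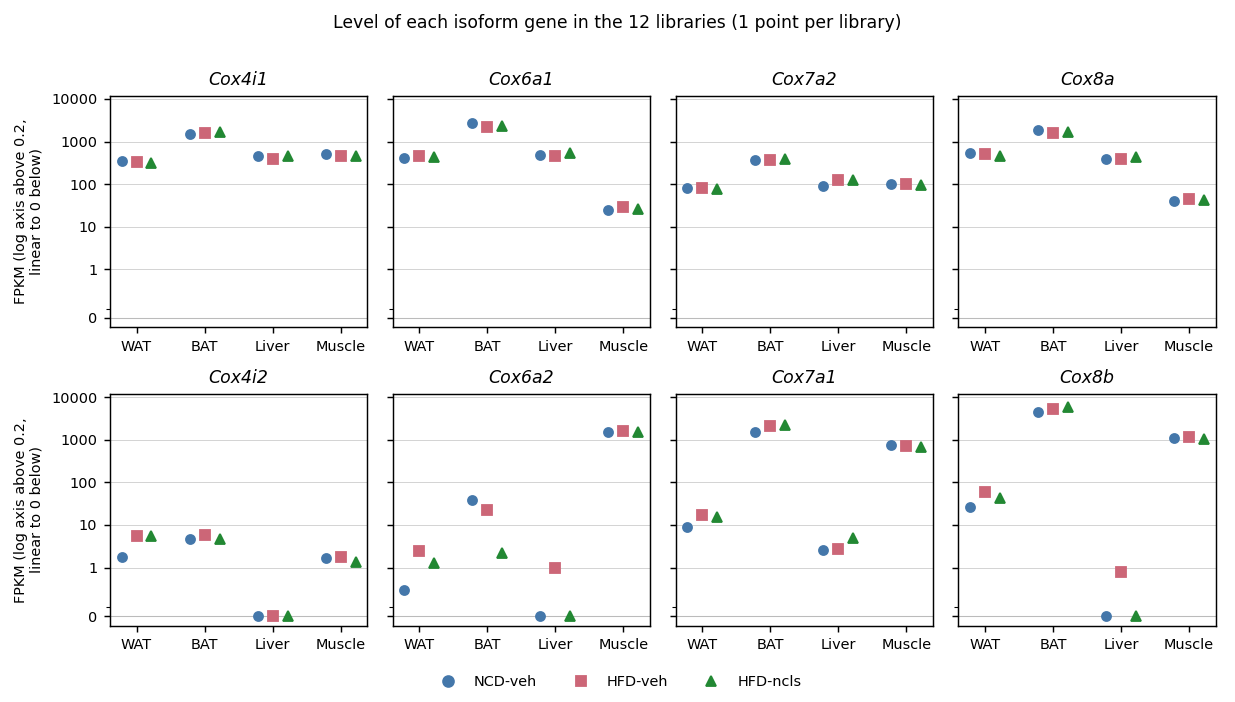
FPKM of the 8 genes in the 12 libraries, 1 point per library, on an axis that is logarithmic above 0.2 and linear to 0 below. The upper row holds the widely expressed forms, the lower row their partners. Cox6a1 and Cox8a drop to 24.8 to 43.7 FPKM in muscle, Cox7a1 and Cox8b are highest in BAT, and Cox6a2 is at 1520 FPKM or more in muscle and at most 38.3 elsewhere.

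By count, 7 of the 8 genes were higher in BAT than in WAT and none was lower, where 12.1% of all genes tested were higher and 66.4% lower. Against liver all 8 were higher in BAT, beside 37.8% of all genes. Between muscle and BAT, 1 gene was higher in muscle (Cox6a2), beside 25.4% of all genes, and 7 were lower, beside 42.8%. Muscle minus WAT gave 5 higher and 3 lower, beside 14.4% and 68.3% of all genes. Muscle minus liver gave 4 higher and 2 lower, beside 34.7% and 40% of all genes, and WAT minus liver gave 4 higher and 2 lower, beside 66.1% and 16.2%. No fold is given against liver for Cox4i2, Cox6a2 and Cox8b, which were listed at 0 in at least 2 liver libraries.

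As a reference for the level of the complex in each organ, 7 further nuclear-encoded subunits were taken. Cox5a, Cox5b, Cox6b1, Cox6c, Cox7b, Cox7c and Ndufa4 together had a median of 165 FPKM ± 8.08 in WAT, 1134 ± 72.0 in BAT, 272 ± 19.1 in liver and 343 ± 13.3 in muscle (SD, n = 3). Their paralogs Cox6b2 and Cox7b2 were at most 16.1 and 0.108 FPKM. All 7 were higher in BAT than in WAT, with a median log2 difference of 2.64 against 2.37 over the 8 isoform genes. The extremes were Cox5a at 3.03 ± 0.11 and Cox5b at 2.98 ± 0.11, and Cox7c at 2.21 ± 0.13 and Cox6b1 at 2.55 ± 0.12 (log2, SE). All 7 were lower in muscle than in BAT, from Cox5a at -0.70 ± 0.11 and Cox7c at -1.07 ± 0.13 to Cox6c at -1.72 ± 0.13 and Cox6b1 at -1.94 ± 0.12 (log2, SE).

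Set against that scale, the summed FPKM of both isoforms differed between pairs. The Cox4 pair was the steadiest, at 2.04 ± 0.0301 times the median reference subunit in WAT, 1.43 ± 0.0304 in BAT, 1.62 ± 0.184 in liver and 1.40 ± 0.103 in muscle (SD, n = 3). The Cox6a pair was at 4.59 ± 0.134 times in muscle, against 2.64 ± 0.239 in WAT, 1.85 ± 0.150 in liver and 2.16 ± 0.350 in BAT. The Cox7a pair was above the reference median in the 2 organs that use Cox7a1, at 2.06 ± 0.256 times in BAT and 2.35 ± 0.0930 in muscle, and under it in WAT (0.572 ± 0.0447) and liver (0.420 ± 0.0453). The Cox8 pair was at 6.00 ± 0.239 times in BAT, 3.35 ± 0.0192 in muscle, 3.25 ± 0.221 in WAT and 1.47 ± 0.0904 in liver. So the Cox7a libraries of BAT and muscle did not overlap with those of WAT and liver, whereas for Cox8 the muscle libraries fell inside the WAT range.

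**Figure D4:**
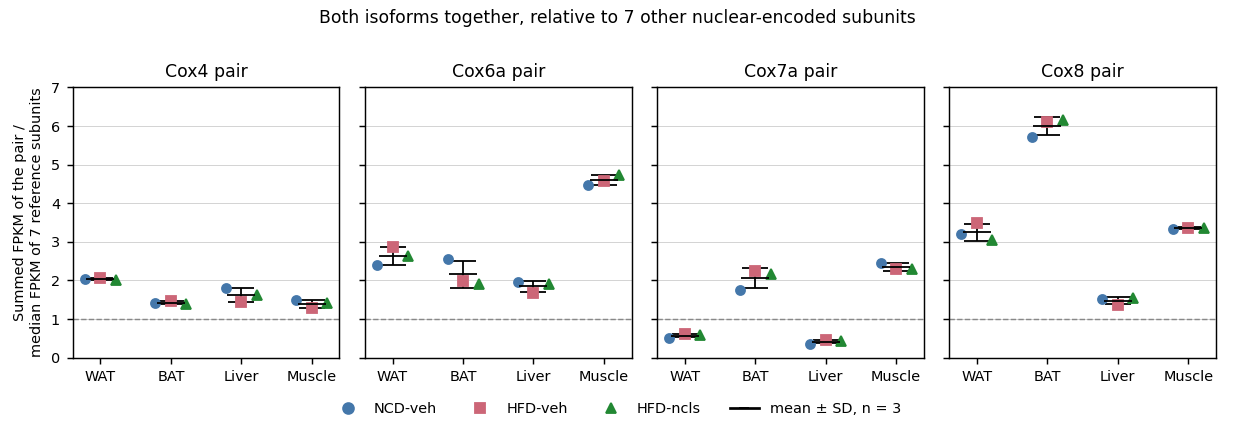
Summed FPKM of both isoforms of a pair divided by the median FPKM of the 7 reference subunits of the same library, by organ, with 1 point per library and bars for the mean ± SD (n = 3). The dashed line marks a ratio of 1. The Cox7a pair is above it in BAT and muscle (2.06 and 2.35) and under it in WAT and liver (0.572 and 0.420).

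Genes that build or express the complex were counted in the same fit. Of 23 assembly and expression factors tested, 8 were higher and 2 lower in BAT than in WAT, with a median log2 difference of 0.14, beside 12.1% of all genes higher, 66.4% lower and a median of -0.97. The largest were Cox17, which carries copper to the enzyme (2.41 ± 0.15, SE), and Cox14 (1.67 ± 0.11). The lowest were Cox15, of heme A synthesis (-0.71 ± 0.16), and Pet117, whose -3.88 ± 1.19 rests on values that are under 0.001 FPKM in 9 libraries, HFD-veh WAT among them. Between muscle and BAT, 4 were higher and 8 lower, beside 25.4% and 42.8% of all genes, led by Taco1, an activator of the translation of subunit 1 (1.82 ± 0.14), and Cox11 (1.02 ± 0.19) at one end and by Cox17 (-2.002 ± 0.15) and Pet100 (-1.38 ± 0.14) at the other. Of the further paralogs, Cox6b2 was at 3.15 to 6.42 FPKM in WAT and reached 16.1 in BAT, Cox7a2l was at 59.4 to 151 FPKM in all libraries, and Cox8c was listed at 0 throughout.

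The genes whose pattern over the 12 libraries was nearest to each of the variable isoforms were found among 10112 genes by the root mean square difference of log2 values after each gene's mean was taken off. Casq1, a calcium-binding protein of muscle (0.61), Eef1a2 (0.74) and Acta1, the actin of skeletal muscle (0.77), were nearest to Cox6a2. Cpt1b, the muscle form of the carnitine palmitoyltransferase that admits fatty acids to mitochondria (0.79), Fabp3, a fatty acid binding protein (1.13), and Pdk4, a kinase of pyruvate dehydrogenase (1.15), were nearest to Cox7a1. Fabp3 (2.03), Cox7a1 (2.46) and Ucp3 (2.54) were nearest to Cox8b, though at larger distances. Kcna5 (0.28), Sema7a (0.30) and Pdgfb (0.39) were nearest to Cox4i2.

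The sequence upstream of the start sites of the Cox7a and Cox8 partners is shown because these are the pairs in which BAT and muscle share the use of the second isoform. The sequences are the 250 bases before the start in RefSeq on GRCm38.p6, in which 5 of the 8 genes were matched, and are written in the direction of transcription. Capitals mark matches to the E-box letters CANNTG, the recognition letters of basic helix-loop-helix factors. The stretches lie at chr7:30183921-30184170 (plus strand), chr9:79759854-79760103 (minus), chr7:140900447-140900696 (minus) and chr19:7217617-7217866 (minus).
Cox7a1: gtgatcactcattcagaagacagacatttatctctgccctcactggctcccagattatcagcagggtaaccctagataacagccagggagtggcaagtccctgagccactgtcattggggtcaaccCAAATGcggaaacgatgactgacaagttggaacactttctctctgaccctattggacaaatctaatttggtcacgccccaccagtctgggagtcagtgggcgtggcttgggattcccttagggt
Cox7a2: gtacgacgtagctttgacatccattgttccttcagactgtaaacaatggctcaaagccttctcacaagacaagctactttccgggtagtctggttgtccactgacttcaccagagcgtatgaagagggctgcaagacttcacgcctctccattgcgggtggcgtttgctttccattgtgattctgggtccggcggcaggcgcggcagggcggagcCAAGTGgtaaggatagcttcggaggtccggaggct
Cox8b: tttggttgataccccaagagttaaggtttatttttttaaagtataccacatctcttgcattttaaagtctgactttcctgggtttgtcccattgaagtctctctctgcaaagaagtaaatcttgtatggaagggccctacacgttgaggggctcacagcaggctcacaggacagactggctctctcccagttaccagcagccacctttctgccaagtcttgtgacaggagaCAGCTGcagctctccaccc
Cox8a: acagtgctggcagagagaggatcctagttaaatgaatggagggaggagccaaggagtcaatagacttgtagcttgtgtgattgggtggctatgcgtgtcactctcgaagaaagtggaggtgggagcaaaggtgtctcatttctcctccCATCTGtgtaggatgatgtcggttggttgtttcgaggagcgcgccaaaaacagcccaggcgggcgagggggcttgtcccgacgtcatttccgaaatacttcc

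Each of these 4 stretches holds 1 E-box, and 66.2% of 32851 promoter stretches of this length hold at least 1. Both heart/muscle-type members shown have fewer CG dinucleotides than their partners. Cox7a1 has 4 against 14 in Cox7a2, and Cox8b has 1 against 11 in Cox8a, where the median of all promoters is 6. Cox6a1 has 26, with 1 match each to TGCGCA, the NRF-1 core (6.43% of promoters), and CCGGAAG, an ETS motif (6.91%), on either strand. AAGGTCA, a nuclear receptor motif found in 4.08% of promoters, has no match in any of the 5 stretches. The coding sequences of the pairs were 70.5% identical for Cox4, 67.0% for Cox6a, 67.0% for Cox7a and 70.6% for Cox8, with no shared run over 14 nt, so reads of 1 isoform are unlike those of the other. Copies of at least 85% identity over at least 50% of the transcript were found elsewhere in mm9 for Cox6a1 (1 copy), Cox7a2 (2 copies) and Cox8a (2 copies). Whether the authors' counting split reads with these copies is not given, which leaves the levels of these 3 genes uncertain.

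Diet was examined in each organ as HFD-veh against NCD-veh, and treatment as HFD-ncls against HFD-veh. With 1 library on each side there is no test within an organ, and over 2-fold on log2(FPKM + 0.1) is used as a description. All values here describe these libraries only. In bulk organs, fewer cells of a type and less RNA per cell cannot be told apart.

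In WAT, 3 of the 8 genes were over 2-fold higher in HFD-veh than in NCD-veh and none was over 2-fold lower, beside 5.24% of all genes tested that were higher and 3.87% that were lower. Cox8b went from 26.1 to 60.4 FPKM (log2 1.21) and Cox4i2 from 1.76 to 5.51 FPKM (log2 1.59). Cox7a1, from 9.16 to 17.5 FPKM (log2 0.92), stayed under 2-fold. The 4 widely expressed members lay between log2 -0.11 and 0.13, and the 7 reference subunits had a median of -0.08, with none over 2-fold. Thus 3 of the 4 minor isoforms of WAT passed 2-fold, whereas none of the other 11 subunits did. The minor isoforms were also lower in level in these libraries, at 0.289 to 60.4 FPKM against 53.5 to 533 FPKM for the other 11. The part of level in this contrast was not tested.

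Cox6a2 in WAT was the lowest value compared, at 0.289 FPKM in NCD-veh and 2.49 in HFD-veh (log2 2.73). These are about 3 and 25 fragments, a ratio of 8.62 with an exact 95% interval of 2.62 to 44.4 that covers counting error only. Itgad, an integrin of macrophages on the opposite strand, shares 66 nt of exon with the 658 nt of Cox6a2. Itgad was at 0.204, 3.75 and 3.51 FPKM in the NCD-veh, HFD-veh and HFD-ncls WAT and at most 0.0753 FPKM in every other library. Counting by strand is not given for these libraries, so reads of the shared stretch cannot be told apart.

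Markers of other cell types moved in the same WAT comparison. Of 10 mural markers 8 were above 0 and 2 over 2-fold higher (median log2 0.45), and all 5 endothelial markers were above 0 with none over 2-fold (median 0.68). Among all genes tested, 6434 of 12208 were above 0. Of 4 brown fat markers tested 2 were over 2-fold higher, Otop1 (0.149 to 3.67 FPKM) and Kcnk3 (8.78 to 18.3 FPKM), while Ucp1, the uncoupling protein that defines brown fat, was at 2.86 and 2.38 FPKM. Of 9 liver markers 8 were over 2-fold higher and Cyp2e1 was over 2-fold lower (1053 to 438 FPKM). Of 6 muscle markers 2 were over 2-fold higher. Of 6 adipocyte markers only Lep was above 0 (300.2 to 1199 FPKM), and Cfd was over 2-fold lower (8163 to 653 FPKM). The part of these cells in the WAT differences was not tested.

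HFD-ncls WAT stayed near HFD-veh WAT, the library that both contrasts share. All 8 genes were below 0 on the log2 scale, where 7114 of 12152 genes tested were above 0. None differed by 2-fold, beside 1.7% of genes over 2-fold in either direction. Cox8b was at 43.4 FPKM (log2 -0.48), Cox7a1 at 15.5 (log2 -0.17), Cox6a2 at 1.30 (log2 -0.88) and Cox4i2 at 5.39 (log2 -0.03). With the muscle share taken off, Cox6a2 passed 2-fold (log2 -1.04).

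In BAT, no member differed by 2-fold between HFD-veh and NCD-veh, where 4.29% of all genes did. The 2 isoforms of the Cox8 pair differed in opposite directions, Cox8b from 4380 to 5142 FPKM (log2 0.23) and Cox8a from 1847 to 1573 FPKM (log2 -0.23). Cox7a1 went from 1546 to 2085 FPKM (log2 0.43) beside Cox7a2 at 372 and 373 FPKM. Cox6a2 went from 38.3 to 22.9 FPKM (log2 -0.74), while 12 of 15 muscle markers were over 2-fold lower. With ncls, 1 member was over 2-fold lower, beside 1.7% of all genes lower and 0.261% higher. This was Cox6a2, which stood at 22.9 FPKM before and 2.18 with ncls (log2 -3.34). All 15 muscle markers were over 2-fold lower in the same comparison, with a median log2 of -2.77, and the other 7 isoform genes lay between log2 -0.26 and 0.19.

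In liver, 5 of the 8 genes reached 1 FPKM and could be compared. None differed by 2-fold with the diet, where 5.12% of all genes did, or with ncls, where 2.31% did. With the diet, Cox7a2 was at 89.5 FPKM in NCD-veh and 122 in HFD-veh (log2 0.45). Of the 5 members compared 2 were above 0, while Cox4i1 (log2 -0.18), Cox6a1 (log2 -0.08) and Cox8a (log2 -0.0013) were below it. All 7 reference subunits were above 0 (median log2 0.15). Among all genes tested with the diet, 5411 of 10016 were above 0. Cox7a1 went from 2.76 to 5.05 FPKM with ncls (log2 0.85), and passed 2-fold when the muscle share was taken off (log2 1.09).

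In muscle, the organ in which the heart/muscle-type isoforms dominate, no member differed by 2-fold with the diet (4.11% of all genes) or with ncls (3.8% of all genes). With ncls, Cox6a2 was at 1598 and 1530 FPKM (log2 -0.06) and Cox7a1 at 714 and 663 FPKM (log2 -0.11). Cox8b was at 1151 and 1063 FPKM (log2 -0.11), and Cox4i1 at 457 and 464 FPKM (log2 0.02). The paper, using qRT-PCR as well as RNA-seq, lists Cox4 among the genes that ncls raised in this muscle, and its main text names no isoform. Cox4i2 had the largest difference with ncls, from 1.74 to 1.36 FPKM (log2 -0.33), on about 26 and 20 fragments. With ncls, 1 of the 8 members and 0 of the 7 reference subunits were above 0, where 5377 of 9694 genes tested were. The SD of the share over the 3 muscle libraries was 0.103 percentage points for Cox6a2, 0.241 for Cox7a1 and 0.135 for Cox8b. The liver markers of the HFD-veh muscle library were over 2-fold lower with ncls in 10 of 10 cases, while the members were not.

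**Figure D5:**
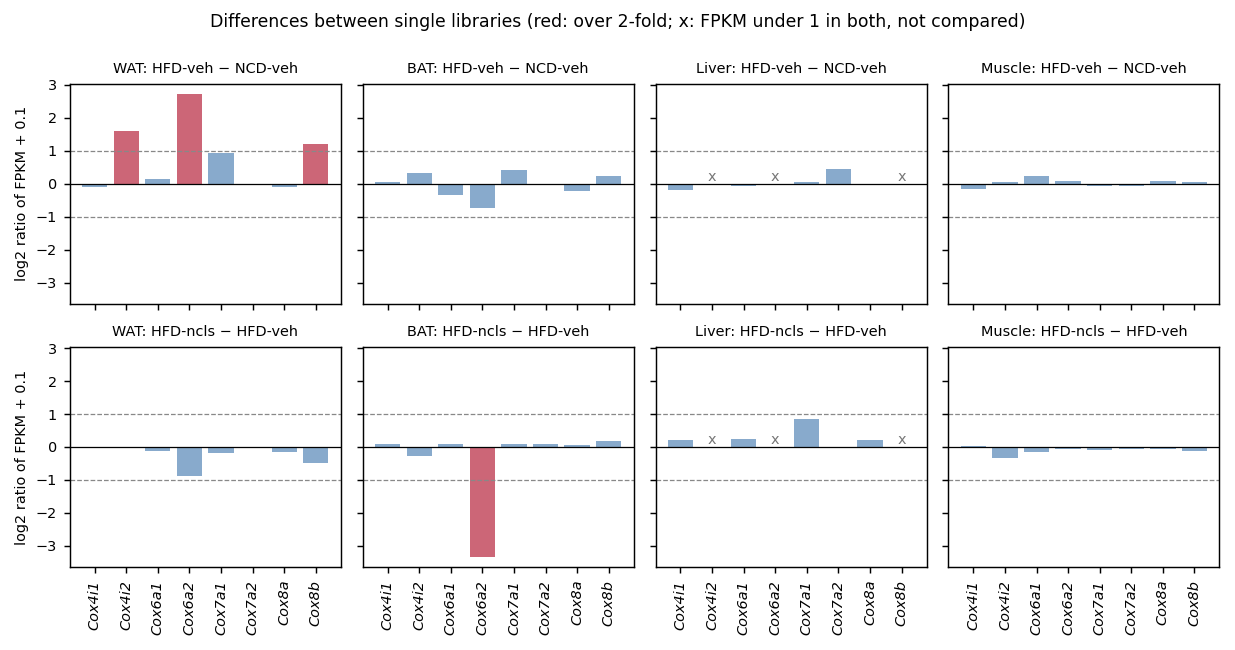
Log2 ratio of FPKM + 0.1 between single libraries for the 8 genes, by organ, with HFD-veh minus NCD-veh above and HFD-ncls minus HFD-veh below. Red bars are over 2-fold (dashed lines), and x marks genes under 1 FPKM in both libraries. Cox4i2, Cox6a2 and Cox8b in WAT with the diet and Cox6a2 in BAT with ncls are the 4 differences over 2-fold.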

How the data were processed

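The authors aligned RNA-seq reads of 12 libraries to mm9 with TopHat, and deposited FPKM per gene symbol from Cufflinks on RefSeq genes. Strand setting, mice per library and scaling between libraries are not given in the sources used here. Values were used as deposited. Organs were compared with limma 3.58.1 (R 4.3.3; trend, two-sided, Benjamini-Hochberg) on log2(FPKM + 0.1), for genes of at least 1 FPKM in at least 1 library, with condition as a term. Each organ's 3 libraries differ in condition, so p-values measure what organ and condition leave unexplained. Within an organ each condition has 1 library, so conditions were described without a test; a difference shared by all organs was not tested here. The script was run on simulated data with the same spread for every gene, which checks the code and not how well the fit suits these libraries. Shares are of summed FPKM. "Muscle share taken off" subtracts the matched muscle library times the median ratio of the muscle markers. Depth was read from steps between low values and is approximate. Positions and transcripts are from GENCODE on mm9, near copies from blastn 2.17.0. All 8 members are named in every library, of each further list the 2 highest and 2 lowest genes, and the 3 nearest patterns. Itgad, Otop1, Kcnk3, Ucp1, Cox6b2, Cox7a2l, Cox7b2, Cox8c, Abcc9, Cyp2e1 and Elovl3 were named after their values were seen. The members and lists were chosen with earlier results of these data known.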

Additional observations from a re-analysis of the deposited data

How the results depend on the processing

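The total of organ calls stayed within 1.5 times under every alternative run, but rescaling by the median ratio moved the higher calls from 1650 to 3507 in BAT minus WAT and from 1972 to 3976 in muscle minus WAT, and the lower calls from 2210 to 4207 in WAT minus liver. Of 648 comparisons of a member between organs under an alternative, 623 kept their direction and side of the threshold, 17 lost the call, 7 gained it and 1 reversed. The reversal was Cox8a in WAT minus liver, at -0.49 after rescaling by the median ratio; its call was also lost with no filter on FPKM (adjusted p = 0.0823) and without the NCD-veh WAT, HFD-veh WAT, NCD-veh liver or HFD-veh liver library (differences of 0.23 to 0.27). For Cox7a2 in muscle minus WAT, the call was lost with no filter (adjusted p = 0.0683) and without the HFD-veh WAT, HFD-ncls WAT or any of the 3 muscle libraries (0.22 to 0.36). Muscle minus WAT lost Cox4i2 after rescaling (-0.35, adjusted p = 0.353), and WAT minus liver lost Cox4i1 with no filter (adjusted p = 0.0671). Cox6a2 in WAT minus liver (adjusted p = 0.0504) passed without NCD-veh WAT, without HFD-veh liver, with a pseudocount of 0.01 or with the muscle share taken off, and rests on livers listed at 0. Leaving out the NCD-veh and HFD-veh BAT libraries, those with the highest Cox6a2 and muscle markers in BAT, leaves 1 BAT library that is assumed to vary like the other groups; BAT minus WAT for Cox6a2 was then 1.30 and muscle minus BAT for Cox4i2 -1.43, both without a call. This choice and the muscle share taken off were added for the organ contrasts after seeing the data. The cause of the other changes was not tested.

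Counts of genes over 2-fold between single libraries moved with the pseudocount and the filter, while the members' 4 calls held under both other pseudocounts, the rescaling and the muscle share taken off, under which 2 of 232 comparisons gained one. With a minimum of 5 FPKM, Cox6a2 in WAT would not be compared. HFD-veh minus NCD-veh gave, with a pseudocount of 1, no filter and a minimum of 5 FPKM, 620, 1933 and 547 genes in WAT, 218, 916 and 207 in BAT, 280, 1026 and 279 in liver, and 254, 950 and 137 in muscle, from 1112, 448, 513 and 394. HFD-ncls minus HFD-veh gave 91, 696 and 68 in WAT, 114, 615 and 80 in BAT, and 98, 657 and 86 in liver, from 207, 203 and 230, and in muscle 924 with no filter and 146 with 5 FPKM, from 368. A filter on FPKM changes how many genes are tested. Mean isoform shares moved by no more than their SD in 79 of 80 cases. The exception was Cox4i2 in liver, 0.0229% with a pseudocount of 0.1 on both isoforms against 0%. Most of the 80 cases leave out 1 of the 3 libraries of an organ. That cannot move a mean past its SD whatever the values, so only the other cases could have failed. Organs were blocked by condition in the fit, and without that term no member's call between organs changed. Depth limits Cox6a2 in WAT, liver and the HFD-ncls BAT, Cox8b in liver and Cox4i2 everywhere.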
